A study of Homo sapiens with 12 samples.

Results

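The early response genes followed here in SH-SY5Y cells exposed to amyloid-β (Aβ) were 10 from the EGR, KLF, NR4A and IER families: EGR1, EGR2, EGR3, KLF4, KLF6, KLF10, NR4A1, NR4A2, IER2 and IER3. They were listed by name as immediate early genes outside the AP-1 family. Each was read from the brightest of its probe sets that carry 1 gene symbol. Of the 10 genes, 9 could be read this way, among 19775 genes with such a probe set, and EGR2 was not analysed here. A mean level over the 12 arrays at or above log2 3.78, the median of all probe sets, was needed for a test. This left 7 of the 9 genes, among 11774, while KLF4 and NR4A2 lay below it.

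SH-SY5Y is an established human neuroblastoma line that is used as a neuron-like model. Per the labels, 3 arrays came from cells given oligomeric Aβ (6 h incubation), 3 from 6 h controls, 3 from cells given fibrillar Aβ (24 h incubation) and 3 from 24 h controls. The 2 forms thus also differ in hours, which the labels leave undefined (time in which the peptide aged, or time on the cells). The dose, the vehicle of the controls and the Aβ species were not given in the sources used here. Nor do the labels say that replicates were separate cultures, so the p-values cover the spread among the arrays at hand, which may be technical, and the precision is that of 3 arrays a group.

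Immediate early genes are transcribed within minutes of a stimulus without new protein synthesis, and their mRNAs are short-lived. The ERK cascade switches on many of them through serum response factor and its ternary complex partners, which bind CArG boxes, and calcium and cAMP do so through CREB. EGR, KLF and NR4A proteins then bind DNA and set the later gene response, which in neurons includes the response to synaptic activity and to injury.

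Promoter sequences of members are shown because serum response and CREB elements are the textbook inputs of this class. RefSeq windows of 250 bases before a gene start (GRCh38.p14) were searched for 5 of the 9 genes read, 6 windows in all. No window of EGR3, KLF10, NR4A2 or IER3 was searched, so their promoters are not described here. In the windows below, each on the strand of its gene, capitals mark CArG boxes, the CREB half-site TGACG (on these strands as its reverse complement) and the EGR site GCGGGGGCG. They lie at chr5:138465229-138465478 (plus strand) for EGR1, chr10:3785210-3785459 (minus strand) for KLF6 and chr19:13150161-13150410 (plus strand) for IER2.
EGR1: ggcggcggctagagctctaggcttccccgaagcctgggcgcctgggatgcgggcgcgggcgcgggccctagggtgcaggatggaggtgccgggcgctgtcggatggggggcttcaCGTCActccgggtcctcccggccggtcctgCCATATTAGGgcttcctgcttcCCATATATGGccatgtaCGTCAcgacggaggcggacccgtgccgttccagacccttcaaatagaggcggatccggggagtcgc
KLF6: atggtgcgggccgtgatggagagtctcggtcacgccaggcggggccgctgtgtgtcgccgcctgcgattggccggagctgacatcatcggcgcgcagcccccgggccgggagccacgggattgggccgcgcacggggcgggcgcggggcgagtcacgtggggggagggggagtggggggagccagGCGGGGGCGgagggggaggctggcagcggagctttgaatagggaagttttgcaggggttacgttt
IER2: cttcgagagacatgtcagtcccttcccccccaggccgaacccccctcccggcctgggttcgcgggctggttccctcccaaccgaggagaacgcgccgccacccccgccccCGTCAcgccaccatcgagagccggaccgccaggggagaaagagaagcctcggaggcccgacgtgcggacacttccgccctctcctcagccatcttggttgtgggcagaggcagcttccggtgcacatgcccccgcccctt

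The EGR1 window held 2 CArG boxes, whose nearer ends lay 96 and 74 bases before the start, and 2 CREB half-sites. A CArG box was found in 1.16% of all 35116 windows of this length, and TGACG in 21.2%. KLF6 held 1 EGR site, found in 4.72% of windows, and IER2 held 1 CREB half-site. The KLF4 window held 2 CREB half-sites, and its sequence is not shown because the gene lay below the filter. The GC box GGGCGG, found in 42.6% of windows, occurred 4 times before KLF4, 3 times before IER2 and 2 times before KLF6, where 1 copy overlaps the EGR site. It occurred 1 time in the second of the 2 windows of NR4A1, the first of which held none of the motifs searched. None of the 6 windows searched held the full CREB site TGACGTCA (1.65% of all windows) or the EGR site GCGTGGGCG (0.72%). Nor did any of the 6 hold the NR4A site AAAGGTCA (1.05%), the ETS site CCGGAAGT (3.42%) or the box TATAAA (10.7%). Both strands were searched. A match is a description of the letters, and no binding was measured here.

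**Figure D1:**
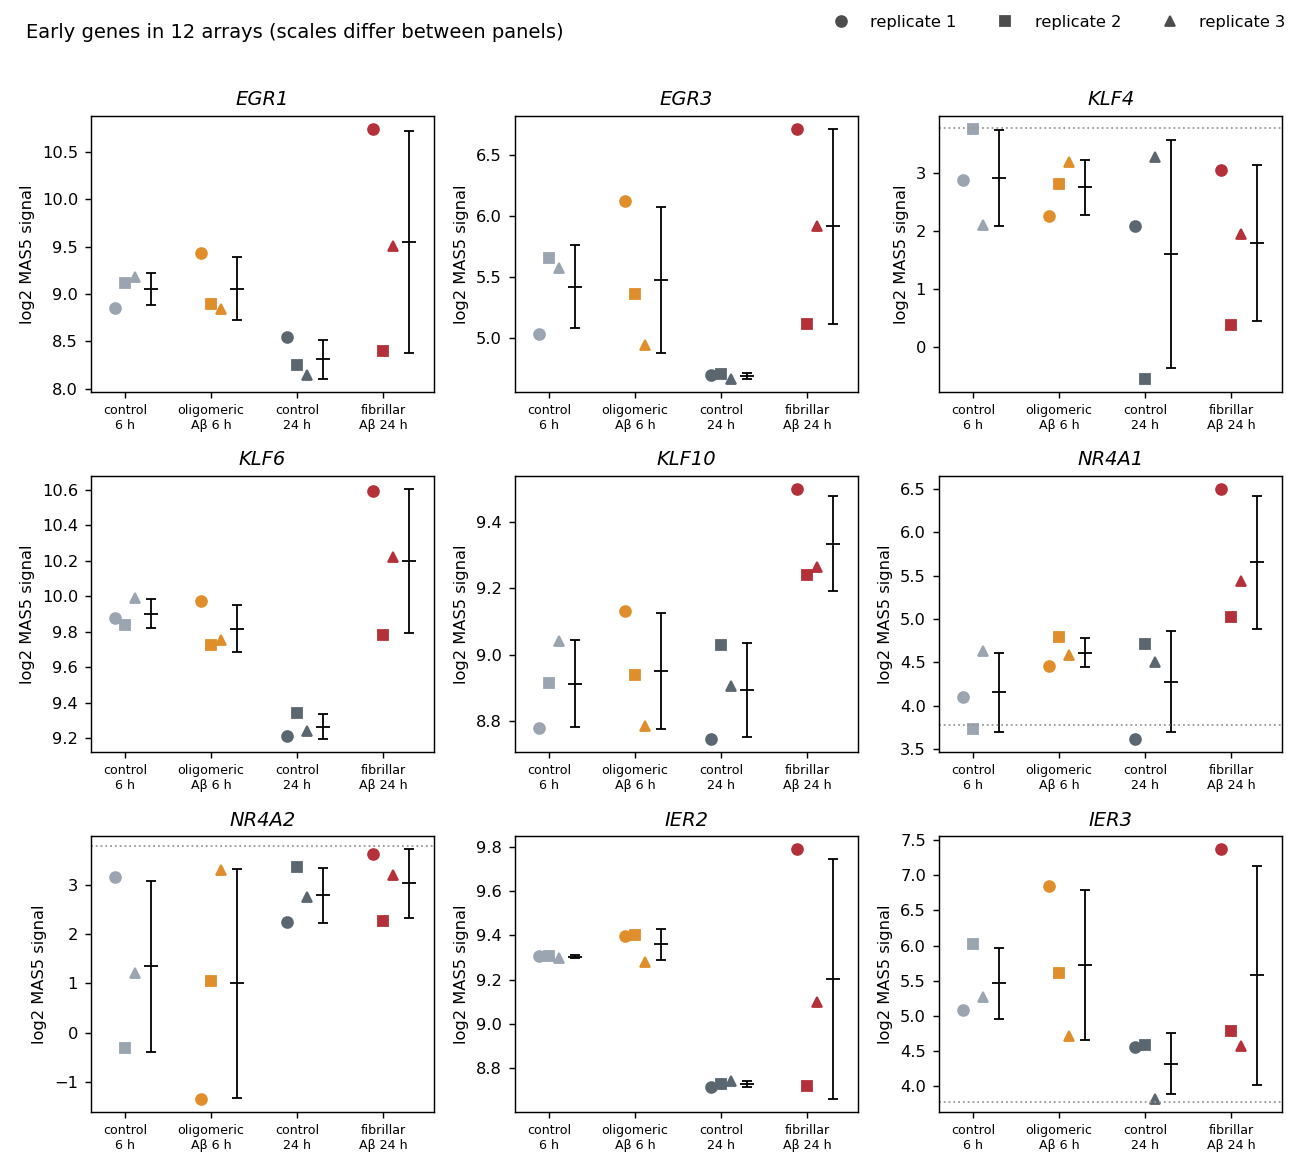
Log2 MAS5 signal of the 9 early genes in each array, by group, with symbols for replicates 1 to 3 and black bars for the mean ± SD (n = 3). The dotted line, drawn where a panel reaches it, is the filter at log2 3.78, and fibrillar replicate 1 is the highest fibrillar array in all 9 panels.

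The arrays were checked against markers of the line. Of 10 noradrenergic neuroblastoma markers read, 9 passed the filter, among them PHOX2A, GATA3 and DBH, while TH had a mean log2 level of 0.73. Of the markers of other cell types, 1 of 7 glial, 2 of 5 epithelial and 1 of 6 blood or endothelial markers passed, and GFAP lay at log2 0.33. Of 10 mesenchymal markers 7 passed, which neuroblastoma lines also express. Array medians ran from log2 3.89 to 4.12. In bulk samples such as these, fewer cells of a type and less RNA per cell cannot be told apart.

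With fibrillar Aβ, all 7 tested early genes had higher means than the 24 h controls, and KLF6 rose. KLF6 encodes a zinc finger activator induced by injury. In the fibrillar arrays its log2 signal was 10.60, 9.78 and 10.22, and in the 24 h controls 9.21, 9.34 and 9.24. Every fibrillar array lay above every control. The change was 0.93 (SE 0.14), or 1.91-fold (limma adjusted p = 0.00627), rank 8 of 11774 genes by p. This 1 call among 7 members stands beside 0.798% of all genes called higher and 0.391% called lower. The median change of the 7 members was 1.22, against -0.0005 over all genes.

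KLF6 is the member read by the most probe sets, and the other 3 above the filter also had higher fibrillar means. In a fit over all 27307 kept probe sets, the 3 brightest of the 4 passed, with changes of 0.93, 0.79 and 0.77 (limma adjusted p = 0.0111, 0.0267 and 0.0314). The least bright had a difference of 0.67 (adjusted p = 0.107) and its groups overlapped. One more lay just under the filter, with a mean of 3.76, and read a difference of 0.04. Leaving out each array in turn kept the KLF6 call in 12 of 12 fits, with changes from 0.74 to 1.14. The call was lost with a constant prior variance (adjusted p = 0.0979).

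KLF10, a zinc finger repressor induced by transforming growth factor β, read 9.50, 9.24 and 9.26 with fibrils and 8.75, 9.03 and 8.91 in the controls. The groups did not overlap, with all 3 fibrillar arrays above the controls. The difference was 0.44 (SE 0.11), or 1.36-fold, and missed the threshold (limma adjusted p = 0.0546). It passed with median centring (adjusted p = 0.0292), the stricter filter (0.0445), log2 of the signal plus 16 (0.0486) and array weights (0.0272), and without oligomeric replicate 1 (0.0423) or 3 (0.0437), which leaves the fibrillar difference itself as it was. KLF4, a zinc finger factor better known in epithelia and stem cells, had levels from log2 -0.56 to 3.77 over the 12 arrays, all under the filter level. Its fibrillar and control values overlapped, and no fold is given.

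Both EGR genes read had larger mean differences than KLF6 and a wider spread, and neither passed. EGR1, an activity-induced zinc finger factor, read 10.74, 8.40 and 9.50 with fibrils and 8.54, 8.25 and 8.14 in the 24 h controls. Fibrillar replicate 2 lay within the control range, and the others lay above it. The difference was 1.24 (SE 0.36, 95% interval 0.47 to 2.01), or 2.36-fold, with a limma adjusted p of 0.124. EGR3, a related factor, read 6.71, 5.11 and 5.91 with fibrils and 4.69, 4.71 and 4.67 in the controls. All 3 fibrillar arrays were above the controls, which differed among themselves by an SD of only 0.02. Its difference of 1.22 (SE 0.35, 95% interval 0.49 to 1.96) had an adjusted p of 0.112. Both EGR genes were called with array weights. The fit takes 1 spread per gene over all groups, and the fibrillar SD was 0.80.

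The probe sets of EGR1 did not give 1 size. The second brightest, at 9.15, 6.81 and 7.81 with fibrils against 6.09, 5.99 and 5.98, changed by 1.91 (SE 0.37) and passed over all probe sets (limma adjusted p = 0.0373). The least bright had a difference of 0.68 (SE 0.38, adjusted p = 0.474) and its groups overlapped. Fibrillar replicate 1 was the highest and replicate 2 the lowest fibrillar array in each of the 3. The mean of the 3 probe sets had a difference of 1.27 and was not called (adjusted p = 0.161).

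**Figure D2:**
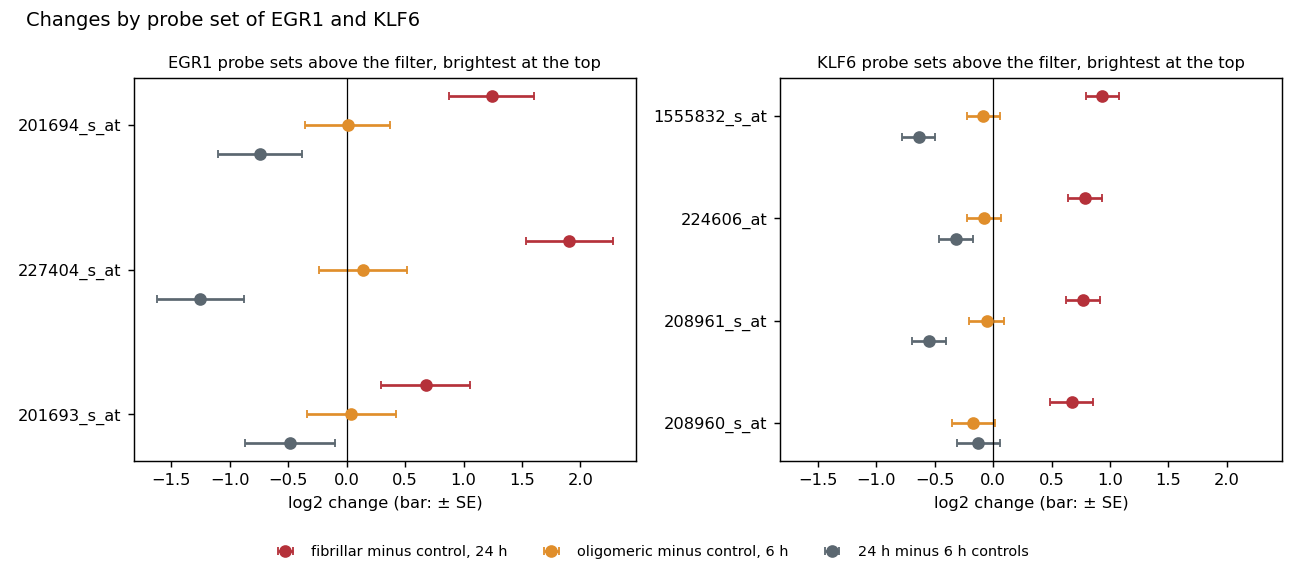
Log2 changes of each probe set of EGR1 (left) and KLF6 (right) above the filter, with bars of ± SE from the limma fit over 27307 probe sets, in 3 comparisons by colour. The fibrillar changes are above 0 for all 7 probe sets, from 0.67 to 1.91, those between the controls are below 0, from -1.25 to -0.13, and those with oligomers run from -0.17 to 0.14.

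NR4A1, an orphan nuclear receptor also called NUR77, read 6.50, 5.02 and 5.43 with fibrils and 3.62, 4.72 and 4.51 in the 24 h controls. The groups did not overlap. The difference was 1.37 (SE 0.38), or 2.59-fold, and did not pass (limma adjusted p = 0.104). The name of its probe set ends in the suffix that flags probes able to bind other transcripts, and its other probe sets lay under the filter. NR4A2, the related receptor NURR1 of dopamine neurons, had fibrillar values of 3.63, 2.25 and 3.19 and control values of 2.24, 3.35 and 2.76. The ranges overlapped and all lay under the filter level.

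Neither IER gene passed with fibrils, and replicate 1 carried much of the mean difference. IER2, a nuclear regulator of early transcription, read 9.79, 8.72 and 9.10 with fibrils and 8.71, 8.72 and 8.74 in the controls. Replicate 1 stood far above the controls, replicate 3 above them and replicate 2 within their range. The difference was 0.48 (SE 0.17, limma adjusted p = 0.206). IER3, a stress-induced regulator of apoptosis, read 7.37, 4.79 and 4.58 with fibrils and 4.56, 4.59 and 3.82 in the controls. Replicate 1 lay far above the controls, replicate 2 just above them and replicate 3 within their range. The difference of 1.26 (SE 0.60, adjusted p = 0.362) was 0.36 (adjusted p = 0.834) without replicate 1.

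**Figure D3:**
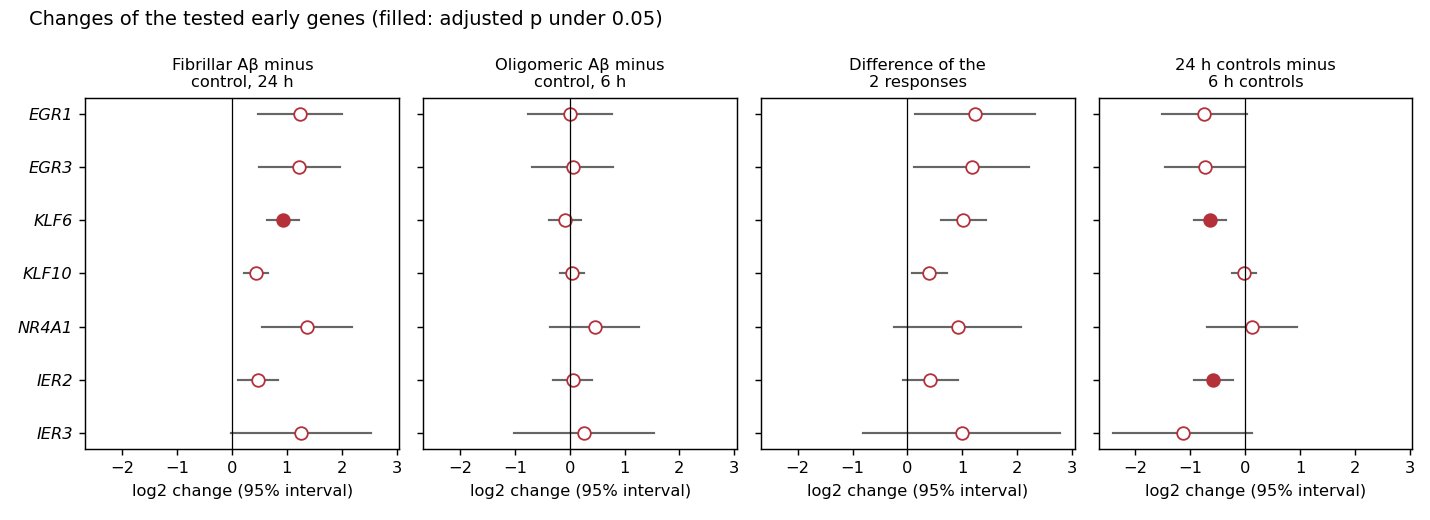
Log2 changes of the 7 tested genes with 95% intervals from limma in 4 comparisons, filled where the adjusted p is under 0.05. Filled points are KLF6 (0.93) with fibrils, and KLF6 (-0.64) and IER2 (-0.58) between the controls.

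Fibrillar and 24 h control values did not overlap for 4 of the 7 genes (EGR3, KLF6, KLF10 and NR4A1), all higher, where 10.9% of all genes lay fully higher. An unadjusted p under 0.05 was reached by 6 of the 7, against 14.2% of all genes. Fibrillar replicate 1 was the highest of the 3 fibrillar arrays for 7 of 7 genes, as it was for 30.6% of all genes. Replicate 2 was the lowest for 6 of 7, against 36.0% of all genes. The SD among fibrillar arrays had a median of 0.76 over the 7 genes and 0.14 over all genes, while among the 24 h controls these medians were 0.14 and 0.13. Without fibrillar replicate 2, EGR1 (1.82, limma adjusted p = 0.00148), EGR3 (1.62, 0.0179), IER2 (0.72, 0.0123) and KLF6 were called, 4 of the 7. Without replicate 1 only KLF6 was, with a change of 0.74 (adjusted p = 0.00462), while EGR1 had 0.64 (0.286), EGR3 0.82 (0.337) and IER2 0.18 (0.511).

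Among the fibrillar arrays, the array controls moved with this order. The 3′ less 5′ value, which rises when RNA is degraded or labelling is short, was 0.81, 0.49 and 0.64 for GAPDH and 3.06, 2.48 and 2.78 for ACTB in fibrillar replicates 1, 2 and 3. In the 24 h controls it was 0.47 to 0.52 and 2.34 to 2.65. The order was not kept in all groups. Control 6 h replicate 1 had the highest values of all (0.83 and 3.25), but the mean of the centred member values was lowest there within its group (-0.18). Oligomeric replicate 3, lowest for the members, had the highest oligomeric GAPDH value (0.80), and replicate 1, highest for them, the highest ACTB value (2.88). The cause of the order was not tested. With the mean of the GAPDH and ACTB values as a covariate, a setting chosen after the data were seen, KLF6 had a fibrillar change of 0.71 (SE 0.12, limma adjusted p = 0.0264). The difference was then 0.68 for EGR1 (SE 0.33, adjusted p = 0.457), 0.89 for EGR3 (0.388), 0.95 for NR4A1 (0.395), 0.20 for IER2 (0.674), 0.39 for KLF10 (0.211) and 0.72 for IER3 (0.755).

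**Figure D4:**
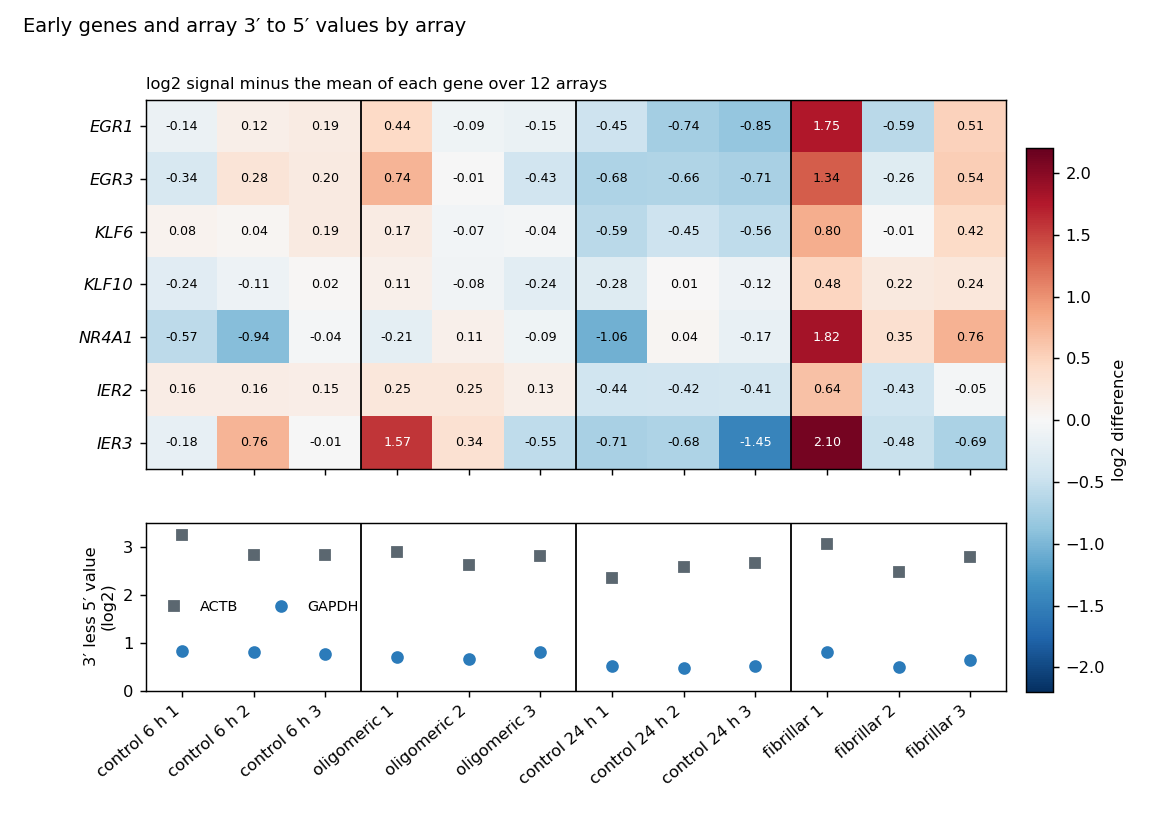
Top: log2 signal of each tested gene minus its mean over 12 arrays, by array, red above and blue below. Bottom: 3′ less 5′ values (log2) of ACTB (squares) and GAPDH (circles) in the same arrays. Fibrillar replicate 1 is the reddest column, and its 3′ less 5′ values of 3.06 and 0.81 are the highest at 24 h.

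With oligomeric Aβ none of the tested early genes was told from its 6 h controls. By limma, 0 of the 7 passed, where 0% of all genes were called higher and 0% lower. An unadjusted p under 0.05 was reached by 0 of the 7 and by 327 of 11774 genes. No member's oligomeric values lay fully to 1 side of the controls, against 3.6% of all genes higher and 3.76% lower. EGR1 read 9.44, 8.90 and 8.84 with oligomers and 8.85, 9.12 and 9.18 in the controls, a difference of 0.01 (SE 0.36, 95% interval -0.76 to 0.78). KLF6 read 9.97, 9.73 and 9.76 against 9.88, 9.84 and 9.99, a difference of -0.08 (SE 0.14, interval -0.38 to 0.21).

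EGR3 read 6.12, 5.36 and 4.94 against 5.03, 5.66 and 5.57, and IER3 read 6.84, 5.62 and 4.72 against 5.09, 6.03 and 5.27. For both, replicate 1 was above all controls and replicate 3 below them. NR4A1 had the largest difference, 0.45 (SE 0.38), with 4.46, 4.79 and 4.59 against 4.10, 3.73 and 4.64. IER2 (0.06, SE 0.17) and KLF10 (0.04, SE 0.11) had oligomeric values of 9.28 to 9.40 and 8.78 to 9.13. KLF4 and NR4A2 were under the filter level in all 6 h arrays. Oligomeric replicate 1 was the highest oligomeric array for 5 of 7 genes, against 31.9% of all genes, and replicate 3 the lowest for 5 of 7, against 30.5%. The upper ends of the 95% intervals were 1.54 for IER3, 1.27 for NR4A1 and 0.78 for EGR1, so responses up to these sizes are not excluded.

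The difference between the fibrillar and the oligomeric responses, each against its own controls, was above 0 for all 7 genes, and 0 of the 7 passed by limma. Over all genes 0.00849% were called higher and 0.034% lower. KLF6 had the smallest p of the 7, with a difference of 1.02 (SE 0.20, 95% interval 0.60 to 1.43, adjusted p = 0.0836), rank 11 of 11774. An unadjusted p under 0.05 was reached by 4 of 7, and by 8.53% of all genes. The KLF6 difference was called with median centring (1.16, adjusted p = 0.0458) and array weights (1.07, 0.025), without fibrillar replicate 1 (0.82, 0.0314) and without fibrillar replicate 2 (1.23, 0.000923). EGR1 was called too without fibrillar replicate 2 (1.81, 0.0253). EGR1 (1.23, adjusted p = 0.489), EGR3 (1.17, 0.501), KLF10 (0.40, 0.437), NR4A1 (0.92, 0.691), IER2 (0.42, 0.677) and IER3 (0.99, 0.805) did not pass with all arrays.

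Without peptide, KLF6 and IER2 were lower at 24 h than at 6 h. KLF6 fell from 9.90 ± 0.08 to 9.27 ± 0.07 (SD, n = 3), a change of -0.64 (SE 0.14, limma adjusted p = 0.00719). IER2 fell from 9.30 ± 0.01 to 8.73 ± 0.01, a change of -0.58 (SE 0.17, adjusted p = 0.0367). These 2 of 7 were called lower, beside 7.92% of all genes called lower and 3.76% called higher. The arrays of the 2 control groups did not overlap for 5 of the 7 genes, all lower at 24 h, where 18.9% of all genes lay fully lower and 13.7% fully higher. The other 3 were EGR1 (-0.74, adjusted p = 0.206), EGR3 (-0.73, 0.191) and IER3 (-1.14, 0.243), with 6 h values of 8.85 to 9.18, 5.03 to 5.66 and 5.09 to 6.03. KLF10 (-0.02) and NR4A1 (0.12) overlapped.

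Both control groups were tight for IER2, while the spread in the fit also takes in the fibrillar arrays. With the 2 control groups alone, IER2 (limma adjusted p = 0.000262), KLF6 (0.000223), EGR1 (0.00143) and IER3 (0.0335) were called. Of the 12 fits that left out an array, KLF6 was called in 12 and IER2 in 6. IER2 lost its call in each fit without a control array, with adjusted p from 0.0769 to 0.0965. EGR1 was called lower without fibrillar replicate 1 (0.0368) or 2 (0.0484). Over all probe sets the second brightest of EGR1 passed (-1.25, limma adjusted p = 0.0482), and its brightest and least bright did not (-0.74 and -0.49). For KLF6 the brightest of the 4 probe sets and the next to last in brightness passed over all probe sets (-0.64 and -0.55, limma adjusted p = 0.0101 and 0.0276), and the other 2 did not (-0.32 and -0.13). The call was lost with the mean of the probe sets (-0.41, adjusted p = 0.0812). The GAPDH 3′ less 5′ value was 0.77 to 0.83 in the 6 h controls and 0.47 to 0.52 in the 24 h controls. With the covariate the changes were -0.21 for KLF6 (adjusted p = 0.486) and -0.05 for IER2 (0.905). The covariate ran from 1.80 to 2.04 in the 6 h controls and from 1.43 to 1.58 in the 24 h controls. It thus changes together with the hours, and the 2 cannot be told apart here. Median centring moved the median over all genes from -0.02 to -0.15 and the changes to -0.77 and -0.71, and the calls over all genes from 443 higher and 932 lower to 140 and 1769.

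The fibrillar and the control comparisons share the 24 h control arrays, so a low value there enters both, with opposite sign. The group means side by side show the order. For KLF6 the fibrillar mean of 10.20 stood above the 6 h controls (9.90), the oligomeric group (9.82) and the 24 h controls (9.27), and the fibrillar range overlapped that of the 6 h controls. IER2 was at 9.36 with oligomers, 9.30 in the 6 h controls, 9.20 with fibrils and 8.73 in the 24 h controls, and the fibrillar values spanned the others. EGR1 was at 9.55 with fibrils, 9.06 with oligomers, 9.05 in the 6 h controls and 8.31 in the 24 h controls. KLF10 (9.33 against 8.91) and NR4A1 (5.65 against 4.16) were the members whose fibrillar arrays also lay fully above the 6 h controls. The second brightest KLF6 probe set lay fully above them too, with a difference of 0.47. The share of all genes that did so was not computed, and the fibrillar arrays and the 6 h controls also differ in hours.

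The members varied together from array to array. After each group's mean was taken away, all 21 pairs among the 7 genes had a positive Pearson r over the 12 arrays, from 0.37 to 0.94 with a median of 0.73. EGR1 with KLF6 (0.94) and EGR1 with IER2 (0.94) were the closest, and NR4A1 with IER3 the loosest. Pairs of other genes were not computed, so how far the members differ from them in this is not known. All genes share the same arrays. The SD of the fibrillar arrays was the largest of any group for each of the 7 genes except KLF10 (0.14, against 0.17 with oligomers). Among 11767 other genes, those most like the mean of the members over the 12 arrays were CD274, which encodes the immune checkpoint ligand PD-L1 (r = 0.94), the cyclin gene CCNT1 (0.94), NFKBIZ, an IκB family regulator (0.91), ERRFI1, a feedback inhibitor of the EGF receptor (0.91), and the atypical cadherin gene FAT1 (0.91). Their differences between the fibrillar and the 24 h control means were 0.85 for CD274, 0.18 for CCNT1, 0.68 for NFKBIZ, 0.70 for ERRFI1 and 0.48 for FAT1. These are a description with no test, since the genes were chosen for following a profile over the same arrays that was itself highest with fibrils.

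Other members of these families, with the EGR co-repressors NAB1 and NAB2, showed 0 of 13 tested genes called by limma with fibrils, where 0.798% of all genes were called higher and 0.391% lower, and their median change was 0.21. IER5, an IER2 relative, changed by 0.29 (SE 0.08, adjusted p = 0.0776) and KLF2, a zinc finger factor of vessels, by 1.01 (SE 0.28, 0.106). With oligomers 0 of 13 were called (median 0.01), with the smallest p for KLF2 (-0.32) and KLF15 (0.15). In the difference 0 of 13 were called, with KLF2 at 1.33 and IER5 at 0.31. Between the controls 4 fell and 1 rose, where 7.92% of all genes were called lower and 3.76% higher. NAB2 fell by 0.97, IER5L by 0.76, KLF13 by 0.42 and IER5 by 0.24, while KLF15 rose by 0.57.

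Among genes that carry the signal to early promoters, 23 of 30 were tested. ELK3, a ternary complex partner of serum response factor, rose with fibrils by 0.49 (SE 0.09, limma adjusted p = 0.0125), from 10.39 ± 0.04 to 10.88 ± 0.16 (SD, n = 3), and was the only 1 of the 23, beside 0.798% of all genes called higher. Their median change was 0.09. With oligomers 0 of 23 were called (median 0.0035), and MRTFB (-0.14) and EP300 (-0.18) had the smallest p. In the difference 0 of 23 were called, with ELK3 at 0.57 and CREM at 0.75. Between the controls HRAS fell by 0.80, RPS6KA3 by 0.70 and MAP2K1 by 0.46, and RPS6KA2 rose by 0.35. These are 3 of 23 lower and 1 of 23 higher, beside 7.92% and 3.76% of all genes.

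Of 27 other immediate early genes tested, 8 rose and 1 fell with fibrils, beside 0.798% of all genes called higher and 0.391% lower, and their median change was 0.41. FOS, an AP-1 subunit, rose by 2.49, JUN by 1.13, the stress factor ATF3 by 1.10 and the small GTPase gene RHOB by 1.05, while MYC fell by 0.54 (limma adjusted p from 0.00131 to 0.0474). The fibrillar SD was 1.47 for FOS, 0.78 for JUN and 0.79 for ATF3, but 0.17 for RHOB and 0.06 for MYC. Fibrillar FOS ran from 5.36 to 8.16, and its lowest 24 h control, at 3.49, was under the filter level. With oligomers 0 of 27 were called (median -0.02), and PLK2 (-0.25) and TRIB1 (0.40) had the smallest p. The difference called 0 of 27, with RHOB at 1.06 (adjusted p = 0.0542) and PLK2 at 0.998 (0.0725). Between the controls RHOB fell by 0.73, CCN1 by 0.69, PLK2 by 0.50 and SGK1 by 0.46, among 5 that fell and 0 that rose, beside 7.92% of all genes called lower and 3.76% higher.

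Among 11 genes of proteins that bind the AU-rich elements of early mRNAs, 0 were called by limma with fibrils (0.798% of all genes higher and 0.391% lower), with a median change of -0.01, and ZFP36L2 (0.24) and ELAVL4 (0.28) had the smallest p. With oligomers 0 of 11 were called (median -0.03; ZFP36L1 at -0.41 and TIA1 at 0.11), and in the difference 0 of 11 (ZFP36L2 at 0.27 and ELAVL4 at 0.28). Between the controls 4 fell and 1 rose, beside 7.92% of all genes called lower and 3.76% higher. ELAVL3 fell by 0.54, ELAVL1, which stabilises such mRNAs, by 0.40, ZFP36L2, which promotes their decay, by 0.29 and HNRNPD by 0.26, while TIA1 rose by 0.35.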

How the data were processed

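The authors deposited log2 probe set signals of 12 Affymetrix 3′ arrays. Per the submitters' processing notes the tool was MAS5, with no version given. The 2% to 98% trimmed mean of the linear signal was equal across arrays, so each had been scaled to 1 target, and the log2 values were used as deposited. Symbols came from the platform annotation (41091 probe sets with 1 symbol, 1801 with several, 11721 with none), updated by gene ID. A group-means model of all arrays was fitted with limma 3.58.1 (R 4.3.3), with a prior variance that follows the level, and Benjamini-Hochberg adjusted p under 0.05 was called over all 11774 genes. The procedure was tested on simulated data in which each gene had the same spread in all groups. That test does not cover the wider fibrillar spread of the members. Its spreads were shuffled among genes, so it also does not cover a spread that follows the level. Members and lists were chosen with earlier results of these data known.

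All members were named. Of each list, up to 4 called genes per direction and comparison with the largest change were named or, where none was called, the 2 with the smallest p. The 5 genes most like the members were named by Pearson r. Alternatives were other normalizations, filters, probe set rules, priors, weights, sample subsets, a block, a 1.5-fold threshold and each array left out. Replicate numbers were not used as pairs.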

Additional observations from a re-analysis of the deposited data

How the results depend on the processing

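The count of the 7 members called with fibrils was 1. Over 12 other settings, the covariate and 12 fits with 1 array left out, it stayed there except that it was 2 with median centring, the 75th percentile filter or log2 of the signal plus 16, 4 with array weights, 0 with a constant prior variance, and 1 to 4 with an array left out. With oligomers it was 0 in each. For the difference it was 0, but 1 with median centring or array weights, and 0 to 2 with an array left out. Between the controls it was 2, but 1 with no filter, a mean over probe sets, a constant or a robust prior variance, or the 1.5-fold threshold, 4 with the compared groups alone, 0 with the covariate, and 1 to 3 with an array left out. The members tested were not the same 7 in every setting. The 75th percentile filter (log2 6.46) left out EGR3, NR4A1 and IER3, and with no filter KLF4 and NR4A2 were tested too.

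The replicate block gave 1, 0, 0 and 2 calls, the same counts. Deviations of same-numbered arrays correlated from -0.02 to 0.09, 0 of 9 over 0.1, though 7 of 9 arrays correlated best with their own number. The numbers were not taken as pairs, and pairing is not excluded.

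Directions turned only for changes that were not called. Median centring moved the median change over all genes with oligomers from -0.0046 to -0.0692, and with fibrils from -0.0005 to 0.0729. The oligomer differences were then -0.0577 for EGR1, -0.01 for EGR3, -0.0251 for KLF10 and -0.0081 for IER2, and NR4A1 between controls was -0.0088. With the covariate they were 0.0786 for KLF6 with oligomers, -0.0579 for IER2 in the difference, and 0.30 for EGR1 and 0.0754 for KLF10 between controls. With 1 array left out the oligomer differences ran from -0.18 to 0.12 for EGR1, -0.27 to 0.32 for EGR3, -0.0511 to 0.12 for KLF10 and -0.29 to 0.77 for IER3, and those between controls from -0.0866 to 0.0549 for KLF10 and -0.0957 to 0.45 for NR4A1. With fibrils, median centring moved the calls over all genes from 94 higher and 46 lower to 143 and 23, and they were 7 in all with a constant prior variance, 79 with no filter, 62 for a mean over probe sets, 35 with the compared groups alone, 268 with array weights, 74 at 1.5-fold, 39 with the covariate and 14 (control 24 h replicate 1) to 185 with an array left out. The cause was not tested. Genes near or below the filter level, such as NR4A1, KLF4 and NR4A2, are limited by their signal over background.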
